A study of Mus musculus with 2 samples.

Results

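The 6 genes described here encode transcription factors that set the fate of a B cell in and after the germinal centre: Bcl6, Prdm1, Irf4, Irf8, Bach2 and Mybl1. They were named as a group by function, with earlier results of these data known. They make up 6 of the 21481 protein-coding mouse genes that could be given a start site on mm10. The data are ChIP-seq, in which an antibody, here to MEF2A, pulls down chromatin whose DNA is then sequenced. The cells were CH12.LX, an immortalized mouse B-cell lymphoma line from a female of the strain B10.H-2aH-4bp/Wts whose age is given as unknown. There was 1 group of 2 biological replicates, with no treatment, no genetic change and no second condition in the labels, so no difference between conditions could be tested. Both replicates come from the same line, which limits them as a model of normal B cells, and the chromatin signal says nothing of how much of each gene was expressed.

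MEF2A belongs to the MEF2 family of MADS-box proteins, which bind an AT-rich DNA element and act with histone deacetylases or coactivators. In the germinal centre, BCL6 holds B cells in a proliferating, mutating state, and BACH2 holds back the plasma cell programme. PRDM1 (Blimp-1) and a high level of IRF4 then shut that state down and drive the cell to become an antibody-secreting plasma cell. IRF8 works mainly on the B cell side of this switch, and MYBL1 (A-MYB) is a MYB family factor present in dividing germinal centre B cells.

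A peak was assigned to a gene when its summit lay in the gene or within 50 kb of the start site. The peaks were those of the authors' optimal set, made by the IDR procedure (irreproducible discovery rate), a filter for peaks whose ranks repeat between lists. This set held 31497 peaks on mm10. The authors' signal value ran in it from 6.41 to 535 with a median of 34.9, and it is used here only to rank peaks within a list, with rank 1 the strongest. Each replicate also had a relaxed list of 300000 intervals, a round limit of the list, in which the rank of the overlapping interval was read. Read depth is unknown.

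All 6 genes had a peak by this rule, as did 68.4% of all protein-coding genes, so the presence of a peak did not set them apart. Their numbers of peaks differed widely. Irf4 had 14 peaks, Prdm1 13, Irf8 12, Bach2 9, Bcl6 4 and Mybl1 1. The median was 10.5 peaks over these genes and 2 over all protein-coding genes. Only 1.77% of all genes had as many as Irf4, 2.36% as many as Prdm1, 3.14% as many as Irf8 and 7.52% as many as Bach2. At the other end, 31% had as many as Bcl6 and 68.4% as many as Mybl1. Long genes offer more room: the counting region was 347697 bp at Bach2, 119811 bp at Prdm1 and 100001 bp at the other 4 genes. At the limits of the window, the farthest peaks inside lay 47886 bp from the start site of Mybl1 and 41061 bp from that of Irf8. The closest outside lay 2337 bp past the counted region at Bach2, 2551 bp at Irf8 and 5145 bp at Prdm1, with ranks of 17099, 17952 and 19114. Per 100 kb, Irf4 had 14 peaks, Irf8 12, Prdm1 10.9, Bcl6 4, Bach2 2.59 and Mybl1 1.

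**Figure D1:**
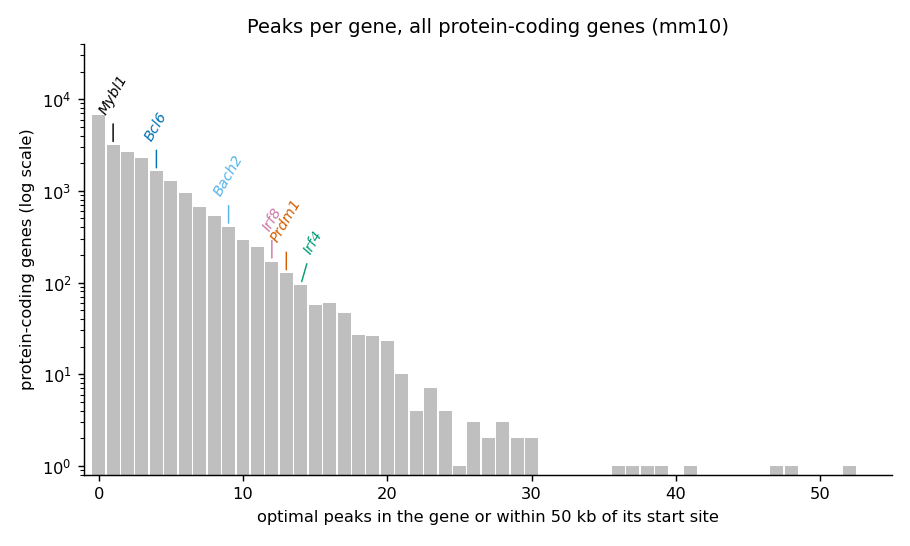
Histogram of the number of optimal peaks per protein-coding gene (x axis, peaks in the gene or within 50 kb of its start site; y axis, number of genes on a log scale; mm10). Labels mark the bins that hold the 6 fate factor genes: Irf4, Prdm1 and Irf8 lie in the tail with 14, 13 and 12 peaks, Bach2 has 9, and Bcl6 and Mybl1 lie in the body with 4 and 1.

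The 53 peaks at these genes were mostly of middle strength and mostly away from promoters. Of them, 31 ranked 15748 or better, the middle of the list, and 2 ranked 3149 or better, the strongest 10% of the list. Only 4 summits lay within 1 kb of any start site of their gene and 34 lay beyond 10 kb. The rule reaches 50 kb from the start site and covers whole genes, and these counts have no share over all optimal peaks beside them. The summits fell in their own gene at 27 peaks, in another gene at 1 and in no gene at 25. The 53 intervals formed 49 separate regions, since 4 pairs of neighbours overlapped, and overlapping neighbours can share an interval in a replicate list. The conservative IDR set, of 28217 peaks, held 45 peaks at these genes by the same rule. It held a peak with the same coordinates and summit for 40 of the 53 (75.5%). The same held for 73.2% of all optimal peaks.

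**Figure D2:**
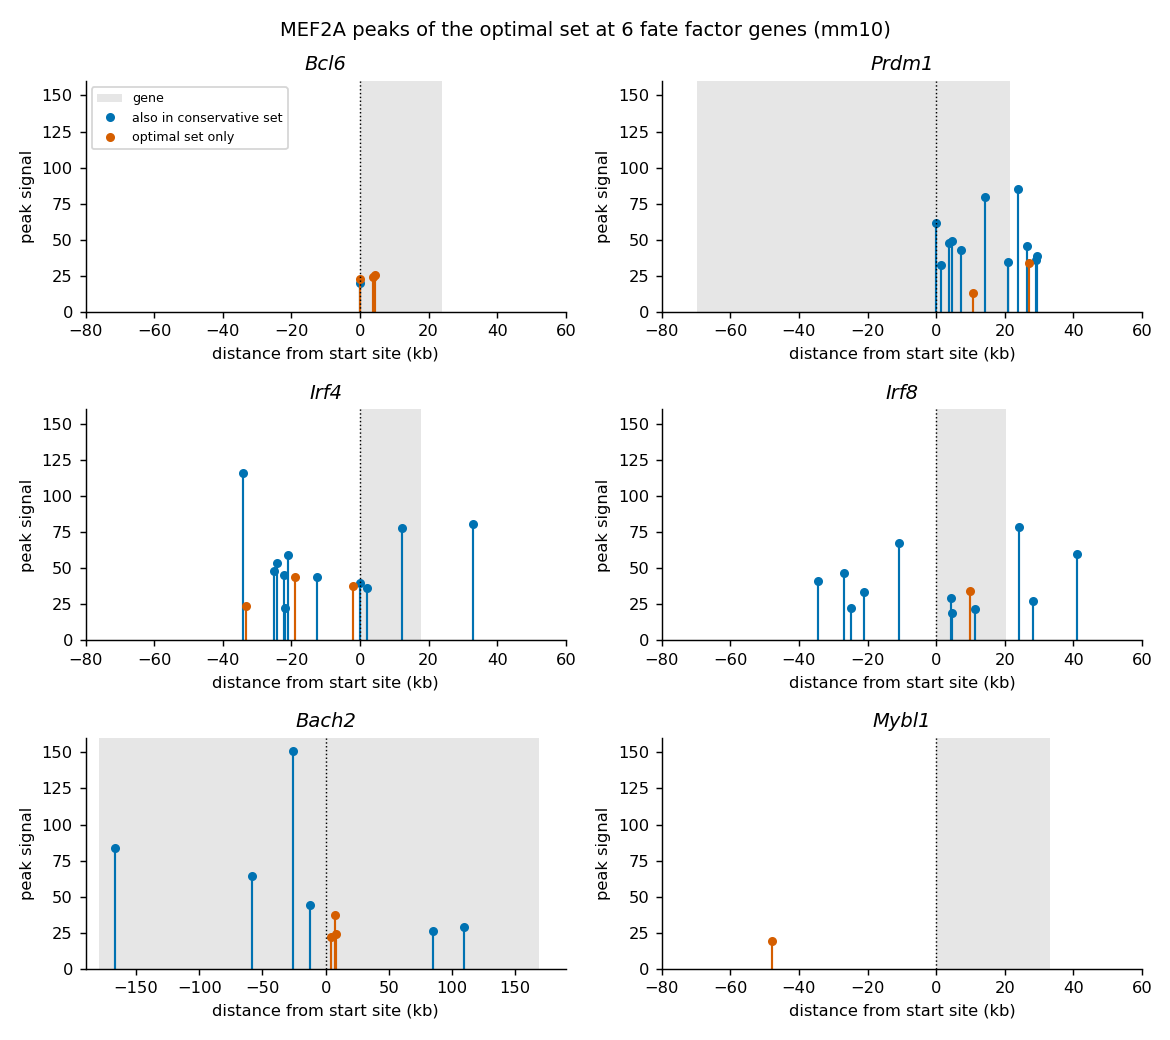
Maps of the 6 loci on mm10, 1 panel per gene, with distance from the start site in kb on the x axis (negative is upstream) and the authors' peak signal on the y axis. Each stem is 1 optimal peak, blue where the conservative set held a peak with the same coordinates and summit, and orange elsewhere. Grey marks the annotated gene. All peaks of Prdm1 lie downstream of the start site used, most of Irf4 lie upstream, those of Bach2 lie inside the gene, and the tallest stem is the Bach2 peak of signal 151.

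Prdm1 (chromosome 10, 44437174 to 44528558 on mm10, minus strand) encodes the zinc finger repressor that shuts down the B cell programme in plasma cells. Its 13 peaks all lay downstream of the RefSeq start site at 44458748, 8 in the gene and 5 beyond its end. Counted from the outermost end of the gene at 44528558 in place of that start site, Prdm1 had 8. The strongest lay 23845 bp downstream of the start site, past the end of the gene, with a signal of 84.9 and rank 3503. It ranked 5439 in replicate 1 and 3257 in replicate 2. Next came a peak in the gene at 14117 bp, with a signal of 79.3 and rank 3944. That one ranked 4363 in replicate 1 and 4199 in replicate 2. Another peak covered the promoter, with its summit 15 bp downstream of the start site, a signal of 61.5 and rank 6226. It ranked 4352 in replicate 1 and 7282 in replicate 2, so Prdm1 had a well-ranked promoter peak in both samples. The other 10 ranged in signal from 13.1 to 48.8. Within 10 kb of sequence, 6 summits stood between 20934 and 29348 bp downstream, a density reached by 2.24% of all genes. The weakest peak, 10659 bp downstream, ranked 287608 in replicate 1 and 37492 in replicate 2, and thus lay close to the end of the first list.

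A further list of 16839 peaks came from the same 2 replicates on mm9, a build for which genome sequence was held. It is therefore no independent measurement at this or the other genes. It gave 10 peaks at Prdm1, a number reached by 0.943% of the 22367 protein-coding genes of GENCODE vM1. Its order of strength began alike: the strongest 3 lay 23845, 14126 and 38 bp downstream of the outermost start site, with signals of 112, 92.1 and 75.5. Offsets in the 2 builds are set side by side and no coordinates were converted. The sequences below, from the plus strand of mm9, span 101 bp centred on the summit. Capitals mark exact matches to any of 14 consensus elements of transcription factors. They show the strongest peak, the one with the second rank at the gene, and an intronic peak of rank 13611 with an NF-kB match.
Prdm1, intergenic, 23784 bp downstream of the nearest start site, chr10:44154659-44154759: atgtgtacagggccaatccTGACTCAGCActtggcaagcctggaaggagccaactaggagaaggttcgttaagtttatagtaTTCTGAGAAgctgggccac
Prdm1, intronic, 14065 bp downstream, chr10:44164378-44164478: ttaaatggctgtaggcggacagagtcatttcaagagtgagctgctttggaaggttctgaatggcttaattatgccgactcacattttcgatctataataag
Prdm1, intronic, 4595 bp downstream, chr10:44173848-44173948: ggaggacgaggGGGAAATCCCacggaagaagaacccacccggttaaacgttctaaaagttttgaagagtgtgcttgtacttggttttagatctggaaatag
In the strongest window, TGACTCAGCA matched on the minus strand the MAF recognition element, the kind of site that BACH2 binds with small MAF proteins. The same letters hold an AP-1 match (TGANTCA), so the 2 matches overlap. It lay 27 bp from the summit. That element was found in 0.944% of all mm9 peak windows of this width and in 1 of the 31 windows at the fate factor genes. A STAT and BCL6 element (TTCNNNGAA) followed 36 bp to the other side of the summit, as in 3.68% of all windows. The second window held none of the 14 elements.

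Irf4 (chromosome 13, 30749233 to 30766981, plus strand) encodes the interferon regulatory factor needed for class switching and for plasma cells. It had the most peaks of the 6 genes, 10 upstream and 4 downstream of the start site. The strongest lay 33955 bp upstream, outside any gene, with a signal of 116 and rank 1939. Its ranks of 2033 in replicate 1 and 2017 in replicate 2 were close. A peak 32905 bp downstream had a signal of 80.8 and rank 3819. It ranked 6088 in replicate 1 and 3116 in replicate 2. A peak inside the gene, 12334 bp from the start site, had a signal of 77.7 and rank 4098. It ranked 4184 in replicate 1 and 4398 in replicate 2. The promoter peak, 88 bp downstream of the start site, was weaker, with a signal of 39.9 and rank 12804, and it ranked 5253 in replicate 1 and 25706 in replicate 2. The remaining 10 ranged in signal from 22.6 to 59.2. Of these, 6 summits stood between 25199 and 18962 bp upstream, as dense as the stretch at the 3′ side of Prdm1.

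On mm9 Irf4 had 9 peaks (1.52% of genes had as many), and the same 3 offsets led: 33948 bp upstream, 32912 bp downstream and 12348 bp downstream, with signals of 167, 104 and 93.9. No mm9 peak lay within 1 kb of its start site. Shown here are the 2 strongest windows and 2 of the upstream stretch that hold elements of the interferon regulatory factors themselves.
Irf4, intergenic, 33948 bp upstream, chr13:30807097-30807197: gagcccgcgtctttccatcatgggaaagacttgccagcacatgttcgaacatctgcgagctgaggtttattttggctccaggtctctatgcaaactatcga
Irf4, intergenic, 32912 bp downstream, chr13:30873957-30874057: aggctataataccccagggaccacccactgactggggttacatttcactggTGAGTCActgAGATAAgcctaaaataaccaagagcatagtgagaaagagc
Irf4, intergenic, 20808 bp upstream, chr13:30820237-30820337: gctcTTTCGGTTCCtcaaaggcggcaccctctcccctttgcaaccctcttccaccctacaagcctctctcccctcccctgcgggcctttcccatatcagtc
Irf4, intergenic, 24137 bp upstream, chr13:30816908-30817008: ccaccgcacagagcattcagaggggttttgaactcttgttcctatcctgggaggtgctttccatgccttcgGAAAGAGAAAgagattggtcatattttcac
The strongest window matched no element. The downstream window held an AP-1 match 4 bp from the summit and a GATA match (AGATAA). Of the upstream pair, the third window held an ETS-IRF composite element (GGAA and GAAA with 2 free bases between them, here on the minus strand), the joint site of PU.1 or SPIB with IRF4 or IRF8, 42 bp from the summit. The fourth held an interferon response element (GAAA repeated after 2 free bases) 25 bp from it. The composite was found in 4.39% and the response element in 3.6% of all mm9 windows.

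Irf8 (chromosome 8, 120736358 to 120756694, plus strand) encodes the interferon regulatory factor that partners PU.1 in B and myeloid cells. Its 12 peaks were spread over both sides, 5 upstream and 7 downstream of the outermost start site. A peak 24121 bp downstream led, with a signal of 78.7 and rank 4002. It ranked 6965 in replicate 1 and 3830 in replicate 2. A peak 10916 bp upstream had a signal of 67.5 and rank 5291. It ranked 4351 in replicate 1 and 5801 in replicate 2. A further peak, 41061 bp downstream, had a signal of 60 and rank 6498, with ranks of 4280 in replicate 1 and 9281 in replicate 2. The 3 strongest thus lay outside the gene, and no summit fell within 1 kb of a start site. The nearest was 2039 bp from an inner RefSeq start site and 4320 bp from the outermost, with a signal of 29.5 and rank 19915. It ranked 28241 in replicate 1 and 18414 in replicate 2. The weakest of the 12 had a signal of 19.1.

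The mm9 list gave Irf8 7 peaks, and 3.6% of genes had as many. The first 3 lay 24095 bp downstream, 10919 bp upstream and 41071 bp downstream of the outermost start site, with signals of 98.6, 86.1 and 66.9. All 7 lay in introns of Gm20388, a GENCODE gene model that spans the locus, and 1 of them also in an Irf8 intron. Windows are given for the 2 strongest and for the most distal upstream peak, where matches crowd the summit. The mm10 peak at a like offset, 34391 bp upstream, lay closer to the start site of Cox4i1, 33742 bp away.
Irf8, 20463 bp downstream of the nearest start site, chr8:123284303-123284403: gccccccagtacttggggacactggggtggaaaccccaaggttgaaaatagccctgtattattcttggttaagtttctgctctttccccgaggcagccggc
Irf8, 10919 bp upstream, chr8:123249289-123249389: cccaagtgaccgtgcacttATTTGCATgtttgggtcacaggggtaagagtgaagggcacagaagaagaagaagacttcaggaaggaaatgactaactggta
Irf8, 34435 bp upstream, chr8:123225773-123225873: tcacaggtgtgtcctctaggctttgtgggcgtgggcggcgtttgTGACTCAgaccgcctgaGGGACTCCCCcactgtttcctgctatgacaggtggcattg
The second window held the octamer (ATGCAAAT, on the minus strand), the site of OCT1 and OCT2, 28 bp from the summit. A further Irf8 peak, 28304 bp downstream of the outermost start site, held another 36 bp from its summit. Within 50 bp of the summit these were the 2 octamer windows among the 31 at the fate factor genes (6.45%), against 3.12% of all mm9 windows. Within 100 bp there were 5 (16.1%), against 5.12% of all: 2 at Irf8, 2 at Irf4, and 1 at Prdm1, in its strongest peak. Over the whole interval there were also 5, against 6.11% of all. In the third window an AP-1 match lay 3 bp and an NF-kB match 15 bp from the summit.

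Bach2 (chromosome 4, 32238413 to 32586109, plus strand) encodes a basic leucine zipper repressor that keeps B cells from turning into plasma cells early. The RefSeq promoter table places its start site at 32417435, inside the gene. All 9 peaks were in the gene. The strongest lay 25919 bp upstream of that start site, with a signal of 151 and rank 1145, the best rank at any of the 6 genes. It ranked 1106 in replicate 1 and 1222 in replicate 2. A peak of signal 83.6 and rank 3606 lay 12432 bp downstream of the outermost end of the gene. This one ranked 3735 in replicate 1 and 3995 in replicate 2. A peak 58620 bp upstream of the inner start site had a signal of 64.3 and rank 5768, with ranks of 2772 in replicate 1 and 12092 in replicate 2. The nearest to a start site, 4370 bp downstream, was the weakest, with a signal of 22.2 and rank 26642. It ranked 21640 in replicate 1 and 60789 in replicate 2. Peaks as strong as the best of Bach2 were found at 6.26% of genes, whereas its density was reached by 38.3%.

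On mm9 Bach2 had 5 peaks, all intronic (8.3% of genes had as many). Their order began with signals of 220 at 25933 bp upstream of the nearest start site, 99 at 11889 bp downstream of one and 63.8 at 58682 bp upstream. The windows below are those of the 2 strongest and of a peak 12094 bp upstream that holds 3 kinds of element.
Bach2, 25933 bp upstream of the nearest start site, chr4:32478427-32478527: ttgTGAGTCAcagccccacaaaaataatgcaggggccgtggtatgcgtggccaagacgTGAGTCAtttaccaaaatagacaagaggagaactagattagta
Bach2, 11889 bp downstream, chr4:32337764-32337864: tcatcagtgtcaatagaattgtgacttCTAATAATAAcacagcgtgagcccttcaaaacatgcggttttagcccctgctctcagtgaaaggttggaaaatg
Bach2, 12094 bp upstream, chr4:32492266-32492366: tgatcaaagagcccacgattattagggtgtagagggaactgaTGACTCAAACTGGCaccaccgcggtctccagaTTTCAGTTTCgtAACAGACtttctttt
The strongest window held TGAGTCA in 2 places, 44 and 11 bp from the summit. The second held CTAATAATAA, 19 bp from the summit, at 32337791 to 32337800 of chromosome 4. This was the only full MEF2 element within 50 bp of a summit among the 31 windows. In the third window TGACTCA lay 5 bp from the summit, with an interferon response element 28 bp from it and a pair of MYB elements (AACNGNC).

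Bcl6 (chromosome 16, 23965050 to 23988866, minus strand) encodes the BTB zinc finger repressor that defines the germinal centre B cell. It had 4 peaks, all weak in the optimal set. The strongest, 4425 bp downstream of the start site at 23988852, had a signal of 25.6 and rank 23457. It ranked 57670 in replicate 1 and 17444 in replicate 2. Another at 3838 bp downstream had a signal of 24.4 and rank 24649, with ranks of 17680 in replicate 1 and 47514 in replicate 2. A pair of overlapping peaks covered the promoter. The one with its summit 129 bp upstream had a signal of 22.5 and rank 26323, and the one 115 bp downstream had a signal of 19.8 and rank 28012. They met the same replicate intervals, which ranked 12777 in replicate 1 and 41745 in replicate 2. None of the 4 had ranks of 31497 or better in both replicates, and 63.5% of genes had a peak as strong as the best one. Their closeness was less usual over all genes: all 4 lay within 4554 bp, and 10.7% of genes had 4 or more summits within 10 kb. It did not set Bcl6 apart from the other members, since Irf8 also had 4 within 10 kb and Prdm1 and Irf4 had 6. The mm9 list held no peak at Bcl6.

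Mybl1 (chromosome 1, 9667407 to 9700439, minus strand) had 1 peak, 47886 bp upstream of its start site. That summit lay inside another gene, Vcpip1, 57 bp from the Vcpip1 start site. Its signal was 19 and its rank 28299, and it ranked 207439 in replicate 1 and 44152 in replicate 2. The conservative set held no peak with the same coordinates and summit, but it held 1 peak at Mybl1 by the same rule. Whether that peak overlaps the optimal one was not examined. No mm9 peak was assigned to Mybl1, so by these lists it was the least occupied of the 6 genes.

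By the same rule, 4 of the 6 genes had a peak on mm9, namely Prdm1, Irf4, Irf8 and Bach2, and 55.2% of all genes did.

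**Figure D3:**
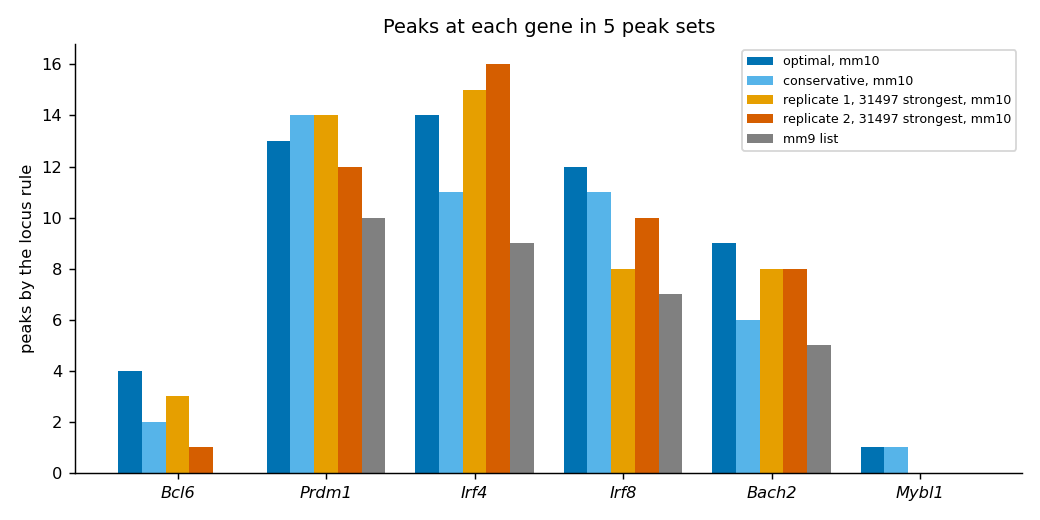
Bars give the number of peaks (y axis) at each of the 6 genes (x axis) in 5 lists: the optimal and conservative sets, the 31497 strongest intervals of each replicate list, and the mm9 list. Irf4, Prdm1, Irf8 and Bach2 keep 5 or more peaks in every list, Bcl6 ranges from 0 to 4, and Mybl1 has 1 peak in the optimal and conservative sets and 0 in the other 3.

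The replicates ranked these peaks with a spread much like that of the whole set. All 53 met an interval in both replicate lists, as did 97.6% of all optimal peaks. In 35 of them (66%) the overlapping interval was among the 31497 strongest of both replicates, against 64.6% of all optimal peaks. The median fold between the 2 ranks was 2.01 at these peaks and 1.71 over all optimal peaks, and the highest at these peaks was 9.11. Replicate 2 gave the better rank at 30 peaks and replicate 1 at 23. The overlapping interval ranked past 31497 at 13 peaks in replicate 1 and at 8 in replicate 2. Past rank 100000 there were 3 in replicate 1, at Prdm1, Irf4 and Mybl1, and 0 in replicate 2. Counts from the 31497 strongest intervals of a single replicate were 14 in replicate 1 and 12 in replicate 2 at Prdm1, and 15 and 16 at Irf4. They were 8 and 10 at Irf8, 8 and 8 at Bach2, 3 and 1 at Bcl6, and 0 and 0 at Mybl1. Irf4 and Prdm1 had more peaks than Irf8 in each replicate, although the 3 counts in the optimal set lay within 2 of each other. Irf8 and Bach2 overlapped in their replicate counts. Bcl6 and Mybl1 had fewer peaks than the other 4 genes in each replicate.

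**Figure D4:**
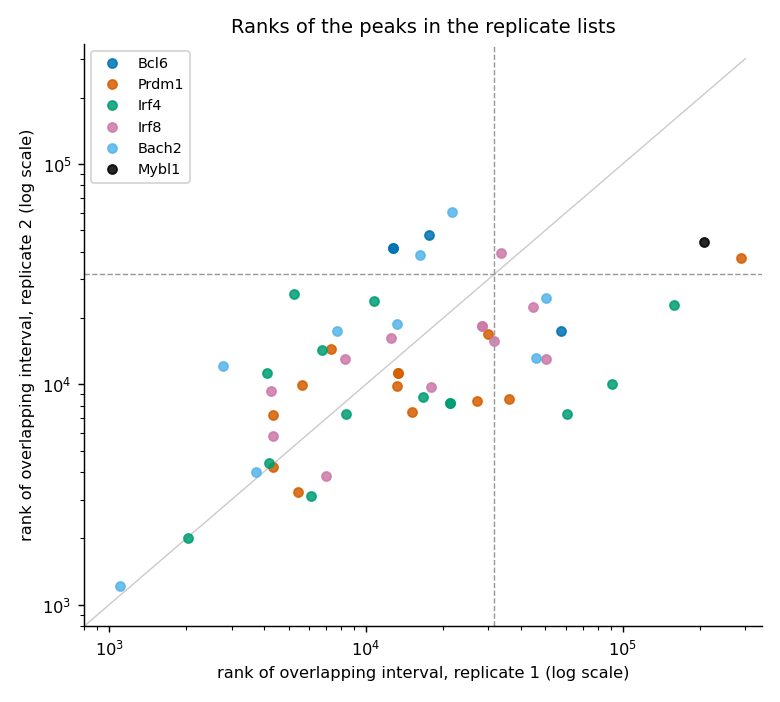
Each point is 1 of the 53 peaks, placed by the rank of its overlapping interval in replicate 1 (x axis) and replicate 2 (y axis), both on log scales with strong peaks at the lower left and colour giving the gene. Dashed lines stand at rank 31497 and the grey line marks equal ranks; the strongest Bach2 and Irf4 peaks lie on that line, and the Mybl1 peak and the weakest Prdm1 peak lie at the far right.

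Across the 31 mm9 windows at these genes, 21 held at least 1 of the 14 elements and 10 held none. The MEF2 element was found in 1 window (3.23%), against 7.13% of all mm9 windows of the same width. Within 100 bp of the summit there were 3 windows (9.68%), against 8.89% of all. The added ones were TTAAAAATAA, 81 bp from the summit of the strongest Prdm1 peak, and CTAATATTAG, 87 bp from the summit of an Irf8 peak 27000 bp upstream of the start site. Most peaks at the fate factor genes, like most of the mm9 list, thus held no exact MEF2 element near the summit, and weaker matches were not counted. AP-1 was found in 6 windows (19.4%), against 12.2% of all, and it was present at each of the 4 genes with mm9 peaks. Within 100 bp AP-1 was in 10 (32.3%), against 17.6% of all. MYB elements were also in 6 (19.4%), against 14.1% of all. The MYB shares were closer in wider windows: 29% against 26% within 100 bp, and 38.7% against 37.5% over the whole interval. Within 50 bp, NF-kB was in 3 (9.68%), against 8.37%, and the ETS-IRF composite in 2 (6.45%), against 4.39%. Neither the PU.1 element (GAGGAAGT) nor the EBF1 element was in any of the 31, beside 3.24% and 1.21% of all windows. Over the whole interval, PU.1 was in 2 of the 31 and EBF1 in 1, beside 6.55% and 2.33% of all. RUNX (TGTGGTT) was in 2 windows within 50 bp (6.45%), against 5.99% of all. With 31 windows, 1 window is 3.23%, so most of these shares lie within a few windows of those over all peaks. The median GC content was 47.5% in these windows and 49.5% in all.

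**Figure D5:**
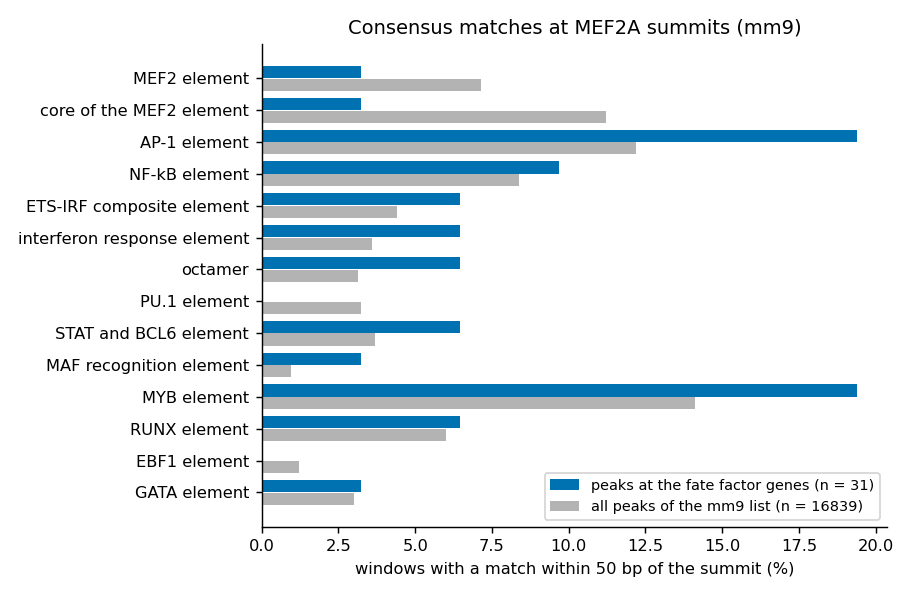
Bars give the percent of mm9 peak windows (x axis, within 50 bp of the summit) that hold an exact match on either strand to each of 14 elements (y axis), for the 31 peaks at the fate factor genes (blue) and all 16839 peaks (grey). AP-1 and MYB stand highest at the fate factor genes with 19.4% each, and the MEF2 element stands at 3.23%, against 7.13% in all peaks.

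The genes most like each of the 6 were sought by the best rank in each replicate list and the number of optimal peaks. For Irf4 they were Socs3 and Pgs1, each with 14 peaks and best ranks of 1952 and 1971 in replicates 1 and 2, from windows that they share. Prdm1 came closest to Spib and Mybpc2, which also share a window, with 12 peaks and best ranks of 4007 and 3366. Nfe2l1 and H2-D1 were nearest to Irf8, with 12 and 11 peaks. Bach2 lay closest to Psmc1 and Macf1, with 8 and 9 peaks, Bcl6 to Pdhb and Macroh2a1, with 4 each, and Mybl1 to Il1r2 and Ppp2r2a, with 1 each. The distance in log10 units ran from 0.008 between Bcl6 and Pdhb to 0.064 between Bach2 and Macf1. It rests on 2 samples.

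Relatives of the 6 genes had peaks as well. All 11 paralogs had a peak, as did 68.4% of all protein-coding genes. The paralogs had 3 to 13 each and a median of 8, against a median of 2 over all genes. Among the interferon regulatory factors named here, Irf9, a subunit of the complex that answers type I interferon, had the strongest peak, with a signal of 288, rank 187 and ranks of 170 in replicate 1 and 198 in replicate 2. Irf1 had 13 peaks, Irf2 10, Irf5 8, Irf7 8 and Irf3 3, with best ranks from 1549 at Irf1 to 12204 at Irf3. Irf4 and Irf8 thus lay inside the range of these relatives by best rank, and at 14 peaks Irf4 was 1 above Irf1. Bach1, the relative of Bach2 that represses haem-regulated genes, had 9 peaks as Bach2 did, with a best rank of 2827. Bcl6b had 6 peaks and a best rank of 6634, better than that of Bcl6. Myb had 11 peaks with a best rank of 1537 and Mybl2 had 3 with 9279, both stronger than Mybl1.

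The other gene lists, of B cell regulators, plasma cell genes, BCL6 corepressors and B cell markers, had median peak counts from 3 to 12. Over all protein-coding genes the median was 2, and 68.4% had a peak. These lists too were chosen with earlier results of these data known. Of 20 B cell and germinal centre regulators all had a peak, with a median of 12. The strongest were at Pou2f2 (OCT2), with a signal of 382 and rank 29, the forkhead genes Foxp1 with 263 and rank 264, and Foxo1 with 237 and rank 366, and Pou2af1 (OCA-B, the partner of OCT2) with 249 and rank 317. Of 10 plasma cell genes 9 had a peak, with a median of 9.5. Those with the strongest were the zinc finger gene Zbtb20 with rank 1, the elongation factor gene Ell2 with 53, Ikzf3 with 350 and Mzb1 with 925. Sdc1, which encodes the plasma cell surface marker syndecan-1, had none. All 6 genes for corepressors that work with BCL6 had a peak, with a median of 3. Among them, the best rank was 4845 at Ncor1, 6302 at Bcor and 7023 at Hdac3. The 5 B cell marker genes, which mark the labelled cell type, all had peaks, with a median of 8. Their best ranks were 441 at Cd22, 474 at Cd79b, 1195 at Ms4a1 and 5981 at Cd79a. The fate factor genes, at a median of 10.5 peaks, lay between these lists, and their best rank, 1145 at Bach2, was weaker than that of each leading gene named from the regulator and plasma cell lists.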

How the data were processed

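MEF2A ChIP-seq peak lists in narrowPeak layout were used as the authors deposited them. Per the texts deposited with the files, each replicate list of peaks and background was called with a control file, both IDR sets derive from these and a pooled list, and the mm9 list came from the mm9 alignments of both replicates. For the peak caller and the aligner, the name is not given in the sources used here. Peaks were ranked within a list by the deposited signal column. The deposited q column falls below 0, was treated as a score and only broke ties. Per the labels, the replicates have separate biosamples.

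Genes came from RefSeq (GRCm38.p6): 21481 of 21883 protein-coding genes (98.2%) could be given a strand, 17491 from the RefSeq promoter table and 3990 by symbol from GENCODE vM1. Where both gave one, they matched in 99.7% of 14608. A single start site per gene was used on mm10, the outermost of the promoter table, and all those of protein-coding transcripts on mm9 (GENCODE vM1). Sequences are from NCBIM37 (mm9), which all 20 chromosomes of the list fit by length. A replicate interval was matched by overlap of 1 bp or more, taking the best-ranked. Coordinates are 1-based. Python 3.11.15, numpy 2.4.6, pandas 2.3.3 and pysam 0.24.0 were used, and motifs were exact matches to a consensus on either strand. On simulated data 200 of 200 gene counts and 700 of 700 planted sites were recovered.

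No test was run: there is 1 group. The members and lists were chosen with earlier results of these data known. Named are all 6 members, their 3 strongest peaks and the one nearest a start site, all paralogs, the 4 genes with the strongest peak and up to 4 with none in each other list, and the 2 genes most like each member. Some genes that this rule selects are not reported here. Sequence windows beyond these were chosen for their matches after these were seen.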

Additional observations from a re-analysis of the deposited data

How the results depend on the processing

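The total of 53 peaks became 29 with a 10 kb window, 146 with a 250 kb window, 31 in the stronger part of the optimal set (rank 15748 or better) and 31 on mm9. It was 49 with the window around the start site alone and 45 in the conservative set, and the 35 peaks strong in both replicates were 32 when 50% of the peak had to be covered. Leaving out replicate 1 or 2, with the 31497 strongest intervals of the other one used, gave totals of 47 to 48, with 5 members having a peak each time (0 at Mybl1) and a share of all genes of 69.4 and 68.5%. That share was 49.9% with 10 kb and 85.9% with 250 kb. The windows with a MEF2 element numbered 3 within 100 bp and 3 over the whole interval, against 1, and those with AP-1 10 and 11, against 6. With 2 alternatives added after the data were seen, merging overlaps gave 49 peaks, and the outermost gene end as start site gave 48, with Prdm1 at 8 in place of 13. In the stronger part and on mm9, Bcl6 and Mybl1 had 0 peaks. Without replicate 1, Bcl6 had 1. No paired analysis was possible because there is only 1 group. Depth is unknown, so an absent peak is a peak not called.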

Other observations

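Beyond 50 kb, Irf4, Bcl6, Prdm1 and Mybl1 had stronger peaks than any inside the window. Counting to 250 kb, Irf4 had 52 peaks, a number reached by 0.182% of all protein-coding genes, Prdm1 39 (2.63%), Irf8 27 (10.1%), Bach2 14 (35.7%), Bcl6 8 (56.7%) and Mybl1 6 (64.9%), and the median over all genes was 9. The strongest at Irf4 lay 145135 bp upstream, in no gene, with a signal of 296 and rank 162, and it ranked 152 in replicate 1 and 207 in replicate 2. The next 3 there lay inside neighbouring genes, 1 in Exoc2 and 2 in Dusp22, with ranks of 483, 757 and 819. Bcl6, weak near its promoter, had an intergenic peak 176848 bp upstream with a signal of 152 and rank 1129. It ranked 1102 in replicate 1 and 1344 in replicate 2, and 3 further peaks stood between 162679 and 219463 bp upstream. Prdm1 had 1 of signal 147 and rank 1197 in no gene, 91610 bp downstream, and 1 of rank 1958 in its neighbour Atg5. At Mybl1 a peak 108134 bp downstream reached a signal of 80.8 and rank 3826. Whether any of these peaks acts on the gene named was not tested, and these windows hold other genes.

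On mm9 the leading peaks of Bcl6 and Irf4 stood at nearly the same distances, 176848 and 145130 bp upstream, with ranks of 1431 and 202. Their windows (plus strand, 101 bp, capitals at matches) are shown because they hold the MEF2 core at Bcl6 and a pair of AP-1 elements at Irf4.
Bcl6, 176848 bp upstream, chr16:24165736-24165836: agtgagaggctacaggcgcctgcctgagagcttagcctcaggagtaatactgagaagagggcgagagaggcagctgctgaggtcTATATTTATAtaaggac
Irf4, 145130 bp upstream, chr13:30695915-30696015: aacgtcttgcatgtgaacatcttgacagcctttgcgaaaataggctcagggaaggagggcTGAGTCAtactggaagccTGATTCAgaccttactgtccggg
The capitals at Bcl6 hold the core of the MEF2 element, the inner letters of that site, and the full form was not matched. Within 50 bp of the summit the core was in 11.2% of all mm9 windows. It was in 3.23% of the 31 windows inside the 50 kb rule at the fate factor genes. Within 100 bp these shares were 14.9% and 9.68%, and over the whole interval 18.8% and 12.9%.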
